A study of Rattus norvegicus with 16 samples.

Results

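The genes described here are the heat shock proteins and the DnaJ (J-domain) proteins that the array measured in rat liver. They were chosen by symbol: the platform annotation had to give a name that starts with Hsp followed by a, b, c, d, e, h or a digit, or with Dnaj, and at least 1 probe set had to be paired with that symbol alone and to reach the 75th percentile of all probe sets in mean log2 value over the 16 arrays. Of 57 genes with such a name and a probe set paired with it alone, 52 passed, out of 12156 genes tested in all. The 5 of these 57 that did not pass were Hspa2, Hspb7, Dnajb7, Dnajc4 and Dnajc5g. Closest to the threshold, log2 6.01, were Dnajb13 inside, whose brightest probe set averaged 6.19, and Hspa2 and Hspb7 outside, both at 5.59. Of the 671 probe sets of all 57 genes, 514 were used, and counts of probe sets higher or lower cover only these. Probe sets of a gene read the same arrays, so their agreement is not independent. The members comprise 9 proteins of the Hsp70 superfamily, 2 Hsp90 proteins, 6 small heat shock proteins, the 2 mitochondrial chaperonin subunits and 30 J-proteins. The remaining 3 entered by name alone: Hspbp1, an exchange factor of Hsp70, Hspbap1, which binds Hspb1, and Lgalsl, a galectin-related protein that the platform lists under its old symbol Hspc159. Lgalsl is no heat shock protein by its current name. It fits the rule and is counted among the 52, and counts of calls that include it are also given without it. Probe sets of Hspa1a, Hspa1b and Hspa1l were paired with several symbols and were not used, and Hsp90b1 was not analysed here.

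Chaperones bind unfolded stretches of other proteins and help them fold, move between compartments or be degraded. Hsp70 proteins do so in cycles of ATP hydrolysis: a J-protein delivers the client and triggers hydrolysis, and an exchange factor such as an Hsp110 protein releases the nucleotide. Small heat shock proteins hold unfolding proteins without ATP, Hsp90 acts late in the folding of kinases and steroid receptors, and the chaperonin Hsp60 with its lid Hsp10 encloses proteins in the mitochondrial matrix. Many of the cytosolic genes are induced by the heat shock factor Hsf1, and those of the endoplasmic reticulum (ER) by the unfolded protein response, which hepatocytes need because they secrete most plasma proteins.

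Livers came from female Sprague-Dawley rats aged 5 weeks, and every animal ate Teklad mash (4%). The mash held UAB30 at 200 ppm, 4-methyl-UAB30 (MeUAB30) at 200 ppm or Targretin (bexarotene) at 150 ppm for 7 days, or no supplement (Control, with no period stated). The 3 compounds activate the retinoid X receptor, a nuclear receptor that pairs with other nuclear receptors on DNA. Each diet has 4 arrays, and nothing in the labels states that the 4 came from different animals. The p-values then reflect only how far arrays of a diet differ, possibly for technical reasons. The comparisons ask which chaperone genes differ between each diet and Control, and between the compounds. Values are log2(intensity + 1) per gene, summarised over its probe sets, changes are differences of group means on that scale, and a gene rose, fell or was called where the Benjamini-Hochberg adjusted p of limma, over all 12156 genes, was under 0.05. In bulk liver, fewer cells of a type and less RNA per cell cannot be told apart.

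Array medians lay between 22.2 and 23.8 intensity units, and arrays correlated with each other at 0.894 to 0.983. Of 8 hepatocyte markers 7 were measured. Their array means were 12.71 to 12.84 on Control, 12.63 to 12.76 on UAB30, 12.48 to 12.66 on MeUAB30 and 12.62 to 12.82 on Targretin. All MeUAB30 means thus lay below all Control means, and what this does to the member values was not tested. Control 3 and Targretin 2 stood apart: the members averaged 8.25 and 8.08 there, against 8.37 to 8.58 on the other 14 arrays. Of the 52 members, 37 were lowest of their group on Control 3 and 41 on Targretin 2, with 27 on MeUAB30 1 and 25 on UAB30 3. Of all 12156 genes, 6077, 7729, 5400 and 5129 were lowest on these arrays. The spread of intensities, taken as log2 of the 99th percentile over the median, was also narrowest on Control 3 (6.06) and Targretin 2 (6.08), and reached 6.28 at most. Counts of called members and of called list genes are given with and without these 4 arrays. These arrays hold the most lowest members of their groups in these same data, so leaving them out can narrow the spread within groups. More genes are then called in all, for MeUAB30 against Control 2446 instead of 1202. Adjusted p-values without these arrays may therefore be too small, and calls gained there are no separate support.

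**Figure D1:**
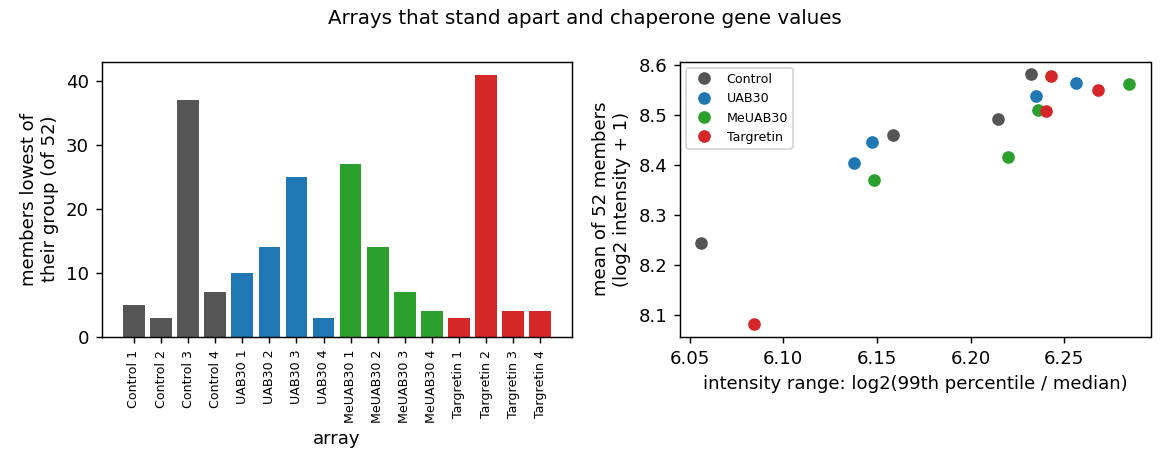
Left, the number of the 52 members that are lowest of their 4-array group on each array. Right, the mean log2 value of the members against the intensity range of the array (log2 of the 99th percentile over the median), 1 point per array. Control 3 and Targretin 2 hold 37 and 41 lowest members and have the narrowest intensity ranges, 6.06 and 6.08.

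Few chaperone genes were called on any diet. On UAB30 no member was called, against 0.0823% of all genes. At an unadjusted p under 0.05 there were 6 members, against 7.83% of all genes, and all 52 changed by less than 1.5-fold. On MeUAB30 3 members were called (5.77%), against 9.89% of all genes: Hspb1 and Hspe1 rose (7.88% of all genes rose) and Lgalsl fell (2.01% fell), which leaves 2 calls without Lgalsl. On Targretin 1 member was called (1.92%), against 2.18% of all genes, and that was Hspb1, which rose, as did 1.51% of all genes, while 0 members and 0.666% of all genes fell. At an unadjusted p under 0.05 there were 9 members on each of these 2 diets, against 23.2% and 10.9% of all genes. A change above 0 was found for 28, 28 and 24 members on the 3 diets, against 61.3%, 59.7% and 48.4% of all genes. The median member change was 0.03, 0.01 and −0.03, and the median of all genes was 0.05, 0.06 and −0.01. Members whose arrays did not overlap with Control numbered 3 on each diet, against 3.4%, 14.4% and 5.33% of all genes. Without the 4 arrays the calls were 0, 7 (6 without Lgalsl) and 2, against 0.255%, 20.1% and 4.07% of all genes. The Targretin count depended most on the setting: with the intensity range of each array as a covariate, 12 members were called (23.1%, 2 higher and 10 lower), against 10.6% of all genes.

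**Figure D2:**
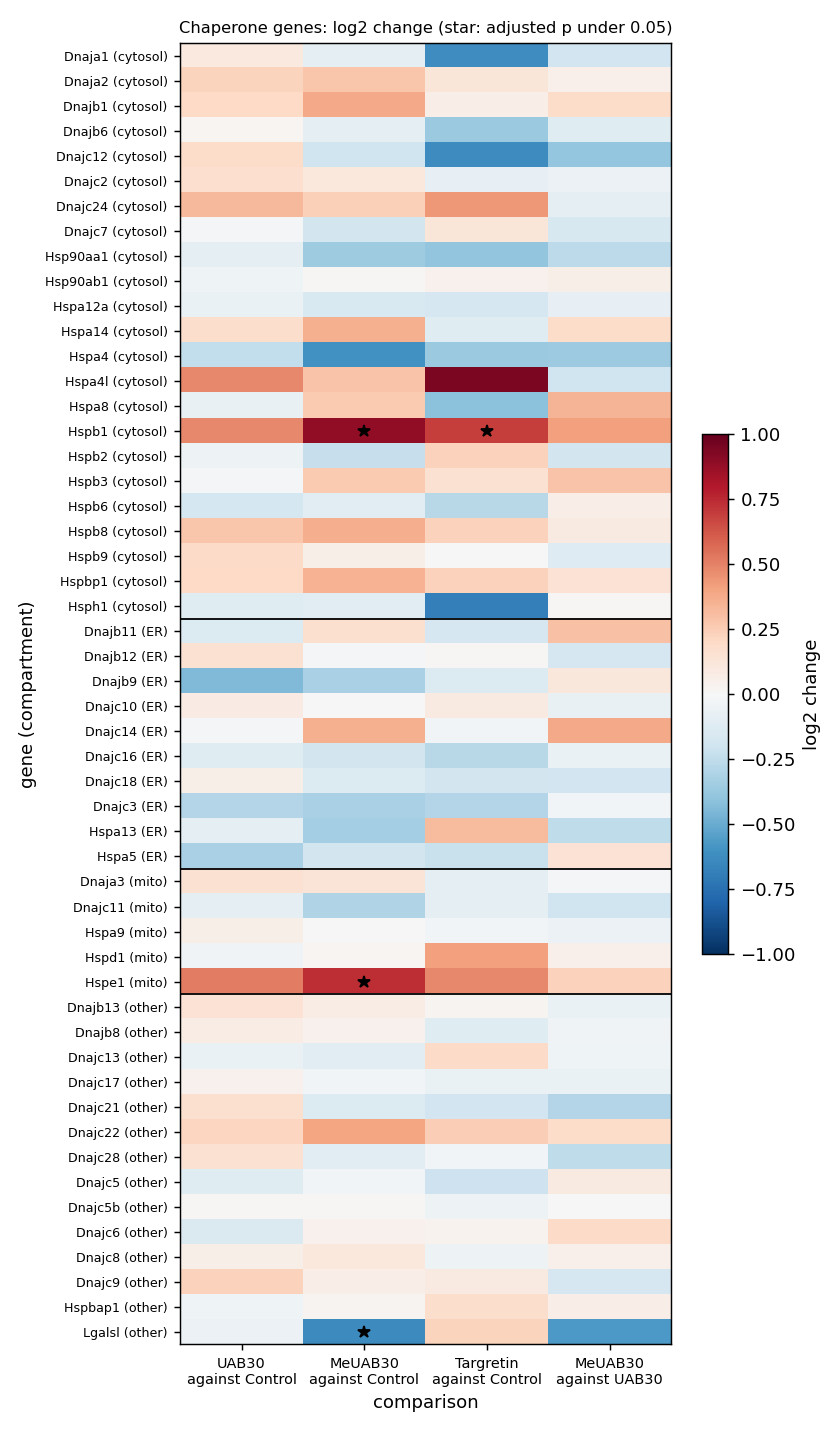
Log2 change of each of the 52 members (rows, ordered by compartment) in 4 comparisons (columns), red for higher and blue for lower, on a scale from −1 to 1. Stars mark an adjusted p under 0.05: Hspb1 on MeUAB30 and Targretin, and Hspe1 and Lgalsl on MeUAB30.

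Hspb1 (Hsp27), a small heat shock protein that binds unfolding proteins and actin filaments, was higher on all 3 diets, and rose on MeUAB30 and Targretin. Hspb1 read 7.30, 7.36, 7.58 and 7.08 on the Control arrays, 8.01, 7.67, 7.77 and 7.77 on UAB30, 8.24, 8.01, 8.43 and 8.19 on MeUAB30 and 7.57, 7.91, 8.18 and 8.40 on Targretin (log2). All MeUAB30 and UAB30 arrays lay above all Control arrays, while the lowest Targretin array (7.57) fell just under the highest Control array (7.58). On MeUAB30 the change was 0.89 (SE 0.16, 1.85-fold, 95% interval 0.54 to 1.24, adjusted p = 0.00253). All 3 kept probe sets, of 4, were higher, by 0.76 to 0.97. Targretin changed it by 0.69 (1.61-fold, adjusted p = 0.0331), a call that was lost in 9 of 19 alternatives. These were no filter (adjusted p = 0.129), the mean of probe sets (0.0663), the replicate block (0.0521), a fit of the 2 groups alone (0.194), and leaving out Control 1, 2 or 4 or Targretin 3 or 4 (up to 0.136). The UAB30 change of 0.48 did not pass (adjusted p = 0.457). The 300 bases around the annotated start of Hspb1 (chr12:26432252-26432551, minus strand, RefSeq GRCr8, 250 before and 50 after the start) are shown because its call on MeUAB30 held in 19 of 19 alternatives. Capitals mark the paired inverted units of the heat shock element, GAANNTTC or TTCNNGAA on either strand.
Hspb1: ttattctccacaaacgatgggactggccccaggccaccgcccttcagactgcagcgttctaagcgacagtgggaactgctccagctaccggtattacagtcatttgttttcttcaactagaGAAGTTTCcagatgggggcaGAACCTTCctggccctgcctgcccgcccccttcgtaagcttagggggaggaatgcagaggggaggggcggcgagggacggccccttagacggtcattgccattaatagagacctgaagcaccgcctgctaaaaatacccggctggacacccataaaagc

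The inverted pair stood in 15.4% of all 27457 promoters of this length and in 13 of the 40 members with an entry (32.5%). A run of 3 units, GAA and TTC in alternation with 2 free bases between neighbours, stood in 0.736% of all promoters and in 5 members: Dnaja1, Hspa8, Hspd1, Hspe1 and Hsph1. These 5 hold the inverted pair too, since the longer motif contains it. In Hspd1 and Hspe1 the match is the same stretch of DNA read on opposite strands, and both counts include it for each gene. A direct repeat of AGGTCA with 1 free base between the copies, searched on both strands, which retinoid X receptor pairs bind, matched in 0 members and 0.0583% of promoters. Its single unit, AGGTCA or TGACCT, matched in 8 members (20.0%) and 15.7% of all promoters. These matches describe letters in a window and are not sites.

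The other small heat shock proteins did not pass on any diet. On Control the log2 values of Hspb8 were 8.52, 9.02, 7.77 and 8.44, on UAB30 9.28, 8.49, 8.25 and 8.83, on MeUAB30 8.64, 8.51, 9.02 and 9.05 and on Targretin 8.75, 8.15, 8.81 and 8.95. Hspb8 (Hsp22), which works with Bag3 in selective autophagy, overlapped with Control on each diet, and its changes were 0.28, 0.37 and 0.23 (adjusted p = 0.857, 0.441 and 0.873). Across the 6 small members the changes ran from −0.18 to 0.48 on UAB30, −0.23 to 0.89 on MeUAB30 and −0.28 to 0.69 on Targretin, with Hspb1 at the top each time.

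Of the mitochondrial chaperonin pair, Hspe1 (Hsp10, the lid) rose on MeUAB30, and Hspd1 (Hsp60, the barrel) was called on no diet. For Hspe1, log2 values were 9.26, 9.62, 8.99 and 8.99 (Control), 10.25, 9.55, 9.32 and 9.77 (UAB30), 9.63, 9.97, 10.13 and 10.08 (MeUAB30) and 9.62, 9.20, 9.89 and 10.07 (Targretin). All MeUAB30 arrays lay above all Control arrays, and the other diets overlapped with Control. The change on MeUAB30 was 0.74 (SE 0.21, 1.67-fold, adjusted p = 0.0352), with all 5 kept probe sets, of 6, higher. The call was lost in 9 of 19 alternatives. These were no filter (adjusted p = 0.0766), the mean of probe sets (0.0612) and the replicate block (0.0629). The others left out any 1 of Control 1, 3 and 4 or MeUAB30 2, 3 and 4 (up to 0.118). On UAB30 and Targretin the changes were 0.51 and 0.48 (adjusted p = 0.559 and 0.4). The log2 values of Hspd1 were 10.22, 10.03, 9.43 and 10.27 on Control, 10.18, 10.03, 9.56 and 10.04 on UAB30, 9.81, 10.12, 9.96 and 10.13 on MeUAB30 and 10.43, 10.10, 10.37 and 10.68 on Targretin. Hspd1 was thus lowest on Control 3 and overlapped with Control on every diet, with changes of −0.03, 0.02 and 0.41 (adjusted p = 0.409 for Targretin, and 0.22 with adjusted p = 0.564 without Control 3). Hspe1 and Hspd1 are neighbours on opposite strands, and their 300-base windows share 211 bases. The Hspe1 window (chr9:64084077-64084376, plus strand) is therefore shown for both, with the heat shock element in capitals.
Hspe1: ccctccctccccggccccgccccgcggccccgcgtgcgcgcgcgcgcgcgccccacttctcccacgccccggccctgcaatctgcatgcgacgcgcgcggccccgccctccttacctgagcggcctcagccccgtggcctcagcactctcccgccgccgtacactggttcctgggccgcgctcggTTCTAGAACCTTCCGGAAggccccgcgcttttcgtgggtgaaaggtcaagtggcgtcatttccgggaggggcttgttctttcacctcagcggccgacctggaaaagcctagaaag

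Hspa9 read 10.44, 10.81, 10.29 and 10.41 on the Control arrays, 10.52, 10.54, 10.59 and 10.55 on UAB30, 10.26, 10.54, 10.59 and 10.56 on MeUAB30 and 10.61, 9.97, 10.60 and 10.66 on Targretin (log2). Hspa9 (mortalin), the Hsp70 of the mitochondrial matrix, overlapped with Control on every diet and changed by 0.06, 0.00 and −0.03. Of the 5 mitochondrial members, Hspe1 was the only one called against Control. In a list of 15 further genes of mitochondrial protein quality control, 3 rose on MeUAB30 (20%, against 7.88% of all genes) and 0 were called on UAB30 or Targretin. When the 4 arrays were left out, 8 rose and 1 fell on MeUAB30, 3 rose on Targretin and 0 were called on UAB30, where 20.1%, 4.07% and 0.255% of all genes were called. Grpel1, the nucleotide exchange factor of mortalin, rose by 0.94 (adjusted p = 0.00366), and Htra2, a serine protease of the intermembrane space, by 0.88 (adjusted p = 0.00782). The third was the prohibitin Phb1, at 0.67 (adjusted p = 0.0392), named after its value was seen. It was lost in 9 of 19 alternatives.

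**Figure D3:**
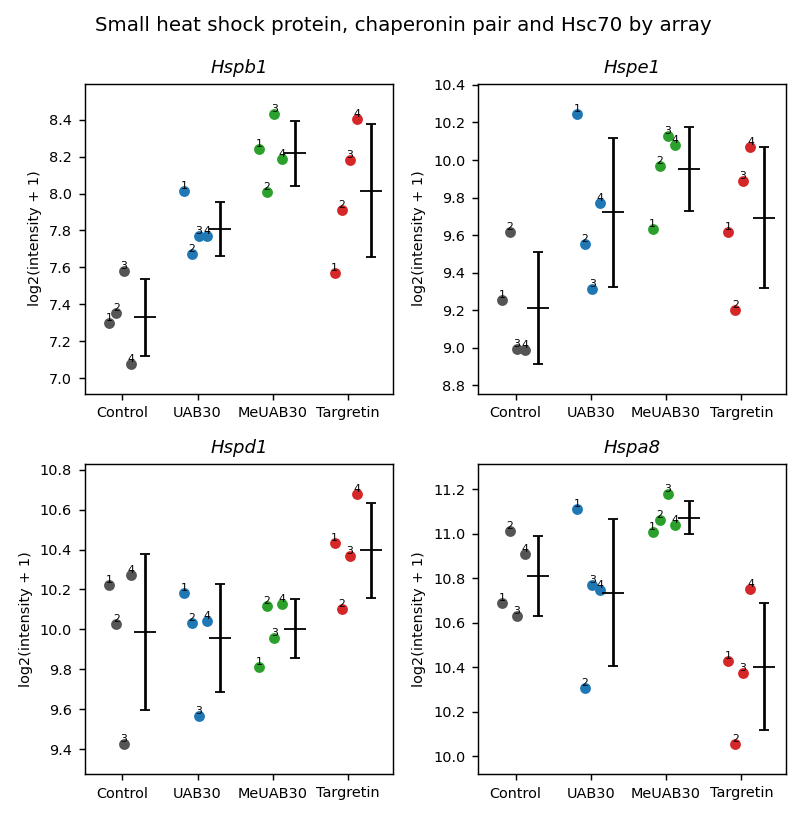
Log2(intensity + 1) of Hspb1, Hspe1, Hspd1 and Hspa8 on each array (points, numbered by replicate), with the mean and SD of each diet (bars, n = 4). The MeUAB30 arrays of Hspb1 (8.01 to 8.43) and Hspe1 (9.63 to 10.13) lie above all Control arrays, and the Targretin arrays of Hspa8 (10.06 to 10.75) below all MeUAB30 arrays.

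Among the members that are cytosolic Hsp70 proteins or their partners, none was called against Control. On Control the log2 values of Hspa8 were 10.69, 11.01, 10.63 and 10.91, on UAB30 11.11, 10.31, 10.77 and 10.75, on MeUAB30 11.01, 11.06, 11.18 and 11.04 and on Targretin 10.43, 10.06, 10.38 and 10.75. Hspa8 (Hsc70), the constitutive cytosolic Hsp70, was highest and tightest on MeUAB30 and lowest on Targretin, but both diets overlapped with Control. Against Control it changed by −0.07, 0.26 and −0.41 (adjusted p = 0.33 for Targretin), and all 27 kept probe sets, of 28, were lower on Targretin. Its window (chr8:50080264-50080563, plus strand) holds 2 runs of the heat shock element in capitals and is shown for that reason.
Hspa8: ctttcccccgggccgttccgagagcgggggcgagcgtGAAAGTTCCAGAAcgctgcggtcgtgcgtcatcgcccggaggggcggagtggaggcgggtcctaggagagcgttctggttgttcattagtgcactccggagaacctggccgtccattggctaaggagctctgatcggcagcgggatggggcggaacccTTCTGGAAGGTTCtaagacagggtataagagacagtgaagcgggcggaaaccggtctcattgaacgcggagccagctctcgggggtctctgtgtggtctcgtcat

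Of the cytosolic J-proteins and exchange factors, Dnaja1, Hsph1, Hspa4, Hspa4l and Dnajc12 differed from Control by more than 1.5-fold on a diet without passing the test, and Targretin 2 held the lowest Targretin value of each. For Dnaja1, log2 values were 10.12, 10.67, 10.05 and 10.05 (Control), 10.39, 10.31, 10.15 and 10.42 (UAB30), 10.14, 9.85, 10.16 and 10.35 (MeUAB30) and 9.79, 8.85, 9.82 and 9.94 (Targretin). Dnaja1, a farnesylated J-protein of Hsc70, was lower on all 4 Targretin arrays than on any Control array, by 0.62 on the log2 scale (adjusted p = 0.165). Without Targretin 2 the difference was −0.37 (adjusted p = 0.246). The log2 values of Hsph1 were 8.69, 9.31, 8.87 and 8.85 on Control, 9.10, 8.55, 8.76 and 8.83 on UAB30, 8.72, 8.61, 8.85 and 9.11 on MeUAB30 and 8.24, 7.45, 8.48 and 8.82 on Targretin. Hsph1 (Hsp105), an exchange factor, overlapped with Control on Targretin at −0.68 (adjusted p = 0.171), and at −0.42 without Targretin 2. Hspa4 read 9.44, 9.32, 8.78 and 9.43 on the Control arrays, 8.98, 9.10, 8.73 and 9.17 on UAB30, 8.40, 8.41, 8.75 and 8.98 on MeUAB30 and 9.07, 8.24, 8.95 and 9.22 on Targretin (log2). Hspa4, another exchange factor, was lower on MeUAB30 by 0.61 (adjusted p = 0.0731), with overlap in 1 array of each group. On Control the log2 values of Hspa4l were 6.94, 6.79, 5.98 and 7.27, on UAB30 7.27, 7.43, 6.75 and 7.48, on MeUAB30 6.56, 7.21, 7.07 and 7.28 and on Targretin 7.94, 7.10, 7.74 and 7.96. Its relative Hspa4l was higher on Targretin by 0.94 (adjusted p = 0.0745), with its lowest value on Control 3, and Targretin 2 below Control 4. All 14 kept probe sets, of 21, were higher, but they read the same arrays. Without the 4 arrays Hspa4 was called lower on MeUAB30 and Hspa4l higher on Targretin (adjusted p = 0.00527 and 0.00246). These adjusted p-values may be too small, since the arrays left out hold the most lowest members of their groups in the same data. Each comparison had 8 limma fits that left out 1 array. Of these, Hspa4 was called only without Control 3 (adjusted p = 0.0273). Hspa4l was called only without Control 4 (adjusted p = 0.0432) or Targretin 2 (adjusted p = 0.0199). In each case the array left out had the value of its group nearest to the other diet. These calls are therefore no separate support.

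For Dnajb1, log2 values were 8.20, 8.53, 7.82 and 8.28 (Control), 8.73, 8.21, 8.31 and 8.38 (UAB30), 8.62, 8.46, 8.68 and 8.60 (MeUAB30) and 8.41, 7.41, 8.56 and 8.71 (Targretin). Dnajb1 (Hsp40), the inducible J-protein, overlapped with Control on each diet, at 0.20, 0.38 and 0.07 (adjusted p = 0.338 for MeUAB30). The log2 values of Hspbp1 were 7.29, 7.22, 7.03 and 7.10 on Control, 7.53, 7.18, 7.43 and 7.31 on UAB30, 7.42, 7.36, 7.60 and 7.64 on MeUAB30 and 7.54, 7.12, 7.37 and 7.54 on Targretin. Hspbp1 lay above all Control arrays on MeUAB30, at 0.34 (adjusted p = 0.101). Dnajc24 read 7.73, 7.55, 7.15 and 7.79 on the Control arrays, 8.04, 7.84, 7.96 and 7.68 on UAB30, 7.79, 7.68, 7.93 and 7.77 on MeUAB30 and 8.12, 8.06, 7.91 and 7.89 on Targretin (log2). Dnajc24, which takes part in the synthesis of diphthamide on elongation factor 2, lay above all Control arrays on Targretin, at 0.44 (adjusted p = 0.141), but it was read by 1 of 2 probe sets, and with the dimmer one included, under a filter at the median or none, the change was −0.32. Dnajc12, a J-protein that acts on aromatic amino acid hydroxylases, lay below all Control arrays on Targretin, at −0.63 (adjusted p = 0.195) and at −0.36 (adjusted p = 0.297) without Targretin 2, and is named after its value was seen.

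The 2 Hsp90 genes did not pass on any diet. On Control the log2 values of Hsp90aa1 were 10.52, 10.51, 10.01 and 10.63, on UAB30 10.68, 10.47, 9.51 and 10.63, on MeUAB30 9.97, 9.57, 10.49 and 10.22 and on Targretin 10.24, 9.03, 10.23 and 10.60. Hsp90aa1, the inducible form, overlapped with Control on each diet, and its changes were −0.09, −0.36 and −0.40. For Hsp90ab1, log2 values were 12.08, 11.86, 11.82 and 11.85 (Control), 11.97, 11.76, 11.72 and 11.99 (UAB30), 11.87, 12.04, 11.88 and 11.88 (MeUAB30) and 11.86, 11.82, 11.97 and 12.12 (Targretin). Hsp90ab1, the constitutive form, overlapped with Control too, at −0.04, 0.01 and 0.04.

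**Figure D4:**
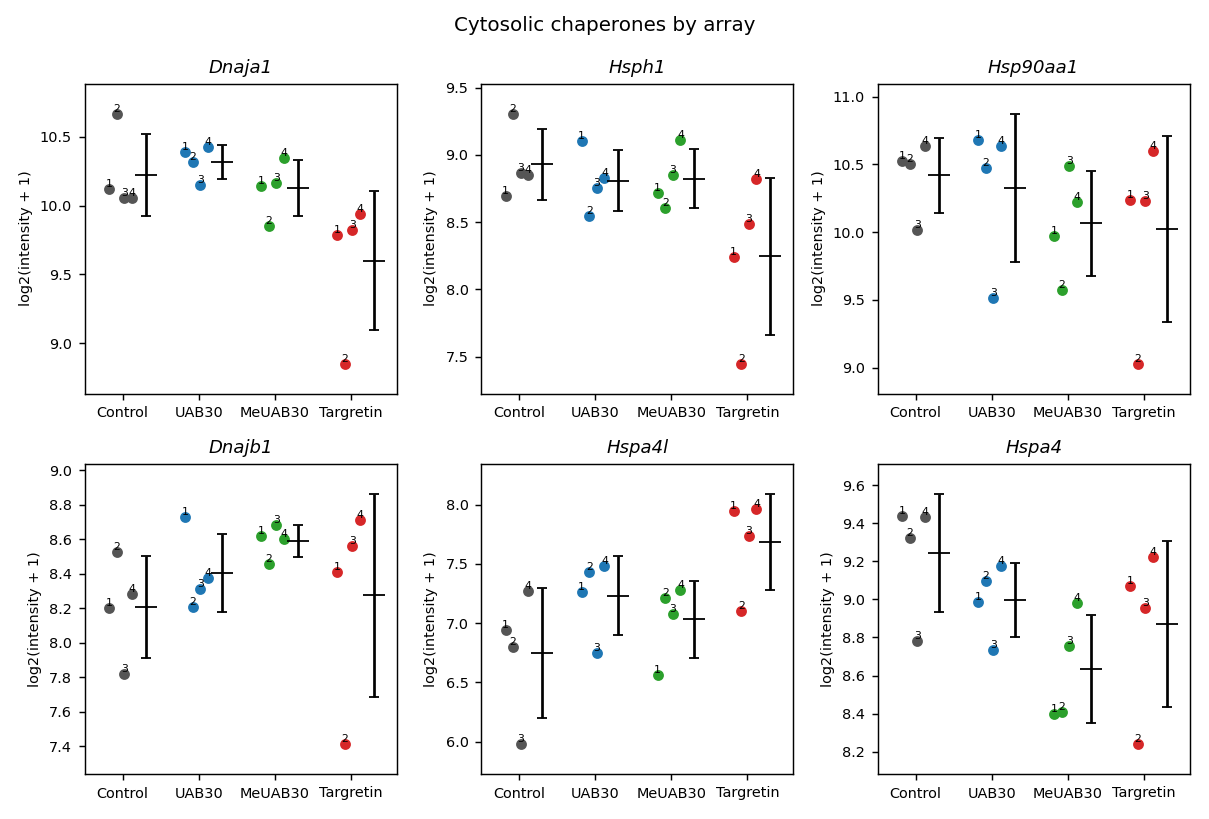
Log2(intensity + 1) of Dnaja1, Hsph1, Hsp90aa1, Dnajb1, Hspa4l and Hspa4 on each array (points, numbered by replicate) with mean and SD per diet (n = 4). Targretin 2 is the lowest Targretin array in each panel, for example 8.85 for Dnaja1 against 9.79 to 9.94 on the other Targretin arrays.

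Of 21 cytosolic co-chaperones and heat shock factors, 0 passed on UAB30 or Targretin and 2 rose on MeUAB30 (9.52%, against 7.88% of all genes). Leaving out the 4 arrays gave 4 that rose on MeUAB30, against 20.1% of all genes called, and 0 in the other counts. The called 2 were St13 and Bag6 (0.42 and 0.40, adjusted p = 0.0377 and 0.0489). St13 is an Hsp70 co-chaperone. Both genes were named after their values were seen, and their calls were lost in 8 and 9 of 19 alternatives. Hsf1, the transcription factor of the heat shock response, changed by −0.16, −0.01 and −0.18, and Fkbp5, an Hsp90 co-chaperone of steroid receptors, by −0.14, −0.23 and −0.04. None of these passed. Among 9 subunits of the CCT chaperonin and of prefoldin, which fold actin and tubulin, only Pfdn1 was called, at 1.08 on MeUAB30 (adjusted p = 0.00518). It is named after its value was seen. On MeUAB30 9.89% of all genes were called. In this list 1 gene rose on MeUAB30 and 1 on Targretin without the 4 arrays, against 20.1% and 4.07% of all genes called.

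None of the 10 chaperones of the ER was called against Control on any diet. The log2 values of Hspa5 were 12.83, 12.80, 12.64 and 12.88 on Control, 12.45, 12.41, 12.48 and 12.52 on UAB30, 12.54, 12.57, 12.61 and 12.70 on MeUAB30 and 12.55, 12.37, 12.61 and 12.73 on Targretin. Hspa5 (BiP), the ER Hsp70, lay below all Control arrays on UAB30, at −0.32 (adjusted p = 0.411), with all 10 probe sets lower, and at −0.18 and −0.22 on MeUAB30 and Targretin. It was called for all 3 diets with the intensity range of the arrays as a covariate (adjusted p = 0.0379 for UAB30). Dnajb9 read 8.98, 9.46, 8.92 and 9.40 on the Control arrays, 8.85, 8.55, 8.91 and 8.67 on UAB30, 8.98, 8.79, 8.95 and 8.73 on MeUAB30 and 9.25, 8.79, 9.15 and 9.01 on Targretin (log2). Dnajb9 (ERdj4), a BiP partner induced by ER stress, lay below all Control arrays on UAB30, at −0.44 (adjusted p = 0.419), and changed by −0.33 and −0.14 on MeUAB30 and Targretin. On Control the log2 values of Dnajc3 were 11.45, 11.37, 11.17 and 11.48, on UAB30 11.09, 11.08, 10.88 and 11.25, on MeUAB30 10.97, 10.99, 10.98 and 11.25 and on Targretin 11.25, 10.68, 11.14 and 11.23. Dnajc3 (p58IPK), which binds BiP and unfolded proteins, changed by −0.29, −0.32 and −0.29 (adjusted p = 0.636, 0.171 and 0.461), with all 14 probe sets lower each time. The 3 comparisons share the Control arrays. Of the 10 ER members, 3 had a change above 0 on each diet, against 61.3%, 59.7% and 48.4% of all genes, and their medians were −0.10, −0.16 and −0.15. No test of the ER members as a group was made. Without the 4 arrays, Dnajb9 and Dnajc3 were called lower and Dnajc14 higher on MeUAB30.

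For Dnajc14, log2 values were 8.34, 8.41, 8.01 and 8.24 (Control), 8.38, 8.13, 8.09 and 8.31 (UAB30), 8.41, 8.49, 8.74 and 8.79 (MeUAB30) and 8.34, 7.72, 8.37 and 8.45 (Targretin). Dnajc14, an ER membrane J-protein, was the ER member with the highest change on MeUAB30, 0.36 (adjusted p = 0.184), and overlapped with Control. The BiP window (chr3:38452766-38453065, plus strand) is shown because it holds, in capitals, the ER stress element (CCAAT, 9 free bases, then CCACG, on either strand), which 0.0765% of all promoters and 2 members, Hspa5 and Dnajc3, hold.
Hspa5: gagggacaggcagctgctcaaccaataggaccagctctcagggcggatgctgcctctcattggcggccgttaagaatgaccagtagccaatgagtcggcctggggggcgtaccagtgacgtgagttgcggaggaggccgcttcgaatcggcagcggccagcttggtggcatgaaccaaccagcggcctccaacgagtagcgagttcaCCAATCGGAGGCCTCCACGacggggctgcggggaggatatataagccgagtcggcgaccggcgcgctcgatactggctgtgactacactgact

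In the list of 26 further ER folding and unfolded protein response genes, 0 were called on UAB30. On MeUAB30 2 rose and 1 fell (11.5% called, against 9.89% of all genes). On the 12 other arrays, 2 fell on UAB30, 3 rose and 5 fell on MeUAB30, and 1 fell on Targretin, against 0.255%, 20.1% and 4.07% of all genes called. Herpud1, an ER-associated degradation factor, rose by 0.79 (adjusted p = 0.00141), and Edem1, which marks misfolded glycoproteins for degradation, changed by −0.63 (adjusted p = 0.0101). The other was the disulfide isomerase Pdia6, at 0.44 (adjusted p = 0.0479), lost in 11 of 19 alternatives. Herpud1 was also higher on MeUAB30 than on UAB30, by 0.72 (adjusted p = 0.00889). On Targretin only Hyou1, an ER exchange factor of the Hsp110 type, was called, at −0.56 (adjusted p = 0.0346), against 2.18% of all genes called. That call was lost in 9 of 19. Pdia6 and Hyou1 are named after their values were seen. Xbp1, Atf4 and Ddit3, transcription factors of the unfolded protein response, did not pass on any diet. Their changes were 0.18, −0.05 and −0.14 for Xbp1, −0.00, 0.28 and −0.10 for Atf4, and 0.16, 0.59 and 0.17 for Ddit3.

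**Figure D5:**
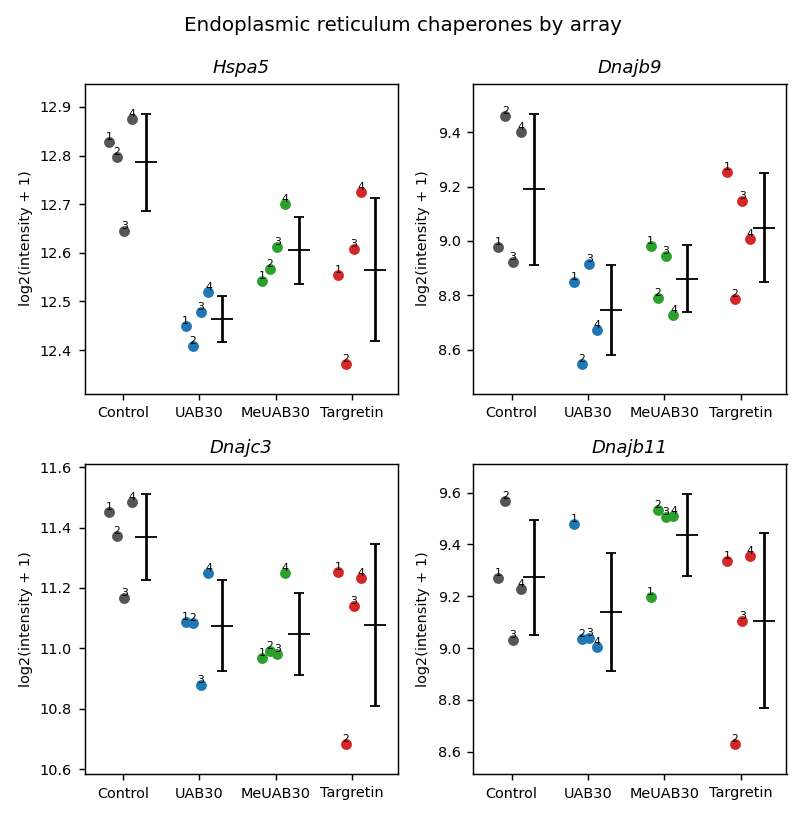
Log2(intensity + 1) of Hspa5, Dnajb9, Dnajc3 and Dnajb11 on each array (points, numbered by replicate) with mean and SD per diet (n = 4). The UAB30 arrays of Hspa5 (12.41 to 12.52) lie below all Control arrays (12.64 to 12.88), with no adjusted p under 0.05.

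The 14 members placed elsewhere (nucleus, vesicles, cilia, membranes or little known) held no call except Lgalsl. The log2 values of Dnajc22 were 10.27, 10.55, 9.87 and 10.20 on Control, 10.69, 10.30, 10.22 and 10.53 on UAB30, 10.38, 10.58, 10.82 and 10.70 on MeUAB30 and 10.75, 9.99, 10.56 and 10.57 on Targretin. Dnajc22, a multi-pass membrane J-protein, overlapped with Control on each diet and changed by 0.21, 0.40 and 0.24 (adjusted p = 0.182 for MeUAB30). Lgalsl read 9.83, 9.65, 9.29 and 9.72 on the Control arrays, 9.62, 9.67, 9.36 and 9.59 on UAB30, 8.90, 9.32, 8.43 and 9.29 on MeUAB30 and 9.80, 9.65, 9.88 and 10.02 on Targretin (log2). Lgalsl was lowest on MeUAB30, where its highest array, MeUAB30 2 (9.32), was just above the lowest Control array (9.29). It changed by −0.64 on MeUAB30 (adjusted p = 0.0287), with all 6 kept probe sets, of 8, lower, and by −0.06 and 0.22 on UAB30 and Targretin. The call was lost in 6 of 19 alternatives: with the filter at the median (adjusted p = 0.0973), in a fit of the 2 groups alone (0.0704), and on leaving out Control 1 or 4 or MeUAB30 1 or 3 (up to 0.105).

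Between the compounds, 3 pairs were compared. UAB30 and MeUAB30 were given at the same dose and differ by a methyl group, as the name states. No member was called between them, against 1.39% of all genes, and 3 members passed an unadjusted p under 0.05, against 11.3% of all genes. Hspb1 was higher on MeUAB30 by 0.41 (95% interval 0.06 to 0.76, adjusted p = 0.319), and Lgalsl changed by −0.58 (−0.95 to −0.21, adjusted p = 0.14). Hspe1 changed by 0.23. Dnajc14, Hspa5 and Lgalsl did not overlap between the 2 diets, against 8.31% of all genes. The 95% intervals of the 52 members reached from −0.95 to 0.83, so differences of that size are not shown to be absent. Leaving out the 4 arrays also gave 0 calls, against 2.78% of all genes.

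Targretin was given at 150 ppm and the other compounds at 200 ppm, and dose and compound cannot be told apart. Against MeUAB30, 2 members were called (3.85%), against 5.63% of all genes, 1 higher (1.72% of all genes) and 1 lower (3.91%), which leaves 1 call without Lgalsl. At an unadjusted p under 0.05 there were 9 members, against 19.4% of all genes. The called 2 were also those with no overlap, against 13.1% of all genes. Hspa8 was lower on Targretin by 0.67 on the log2 scale (SE 0.17, adjusted p = 0.024), with 26 of 27 probe sets lower. That call was lost without the 4 arrays (adjusted p = 0.0579) and on leaving out MeUAB30 2, 3 or 4 or Targretin 2 or 3 (adjusted p up to 0.0777). Lgalsl was higher on Targretin by 0.85 (SE 0.18, 1.81-fold, adjusted p = 0.00756), and kept the call in 19 of 19 alternatives. Hspb1 differed by −0.20 (−0.55 to 0.15). Without the 4 arrays 6 members were called (5 without Lgalsl), all higher on Targretin, against 10.4% of all genes. Against UAB30 no member was called, against 1.23% of all genes, with 5 members at an unadjusted p under 0.05, against 8.89% of all genes. Dnaja1 and Dnajc12 did not overlap there, against 6.75% of all genes. The count was 0 without the 4 arrays too, against 1.47% of all genes.

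Other gene lists moved on the same arrays, and their part in these results was not tested. Of 16 immediate early genes, 1 rose on UAB30, 2 on MeUAB30 and 0 on Targretin, against 0.0823%, 9.89% and 2.18% of all genes called. Without the 4 arrays 2, 3 and 1 rose, against 0.255%, 20.1% and 4.07% called. The transcription factor Egr1 rose by 1.49 on UAB30 (adjusted p = 0.000215) and by 1.43 on MeUAB30, and Junb by 1.08 on MeUAB30 (adjusted p = 0.00197). Both are named after their values were seen. Of 9 Kupffer cell markers, 9 had a positive change on UAB30 (median 0.41), 8 on MeUAB30 (median 0.56) and 6 on Targretin (median 0.09), with 0 called by limma. At an unadjusted p under 0.05 there were 1, 6 and 1, against 7.83%, 23.2% and 10.9% of all genes. The MeUAB30 median was 0.35 without the 4 arrays, and 1 marker was then called higher, against 20.1% of all genes called. Their array means were 8.55 to 8.85 on MeUAB30, 8.34 to 9.10 on UAB30, 7.71 to 8.81 on Targretin and 7.82 to 8.79 on Control. The 3 neutrophil markers measured had array means of 6.71 to 6.84 on MeUAB30, 6.07 to 6.93 on UAB30, 6.30 to 6.84 on Targretin and 6.12 to 6.48 on Control. Without the 4 arrays their median change on MeUAB30 was 0.20, with 0 called. Of the 7 hepatocyte markers, 1 rose and 2 fell on MeUAB30, where 7.88% of all genes rose and 2.01% fell. Without the 4 arrays 1 rose and 1 fell, against 20.1% of all genes called. On Targretin, 6 stellate cell markers had a median change of −0.39 (1 called lower) and 3 erythroid markers one of −0.98 (1 called lower). Of all genes 0.666% were called lower on Targretin. There, 2 stellate cell markers and 0 erythroid markers were called lower without the 4 arrays, with medians of −0.40 and −0.79. In that fit 4.07% of all genes were called.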

How the data were processed

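Liver RNA of 16 arrays (4 diets, 4 arrays each, groups and replicate numbers from the titles) was measured on Affymetrix whole-transcript arrays. The authors deposited 1 linear intensity for each of 887828 probe sets on every array. How they summarised, background-corrected and normalized it is not given in the sources used here, and the submitters' processing notes name only the build rn4. The platform annotation paired 177688 probe sets with 1 symbol, 2920 with several, and 707220 are unnamed here; of its symbols 11393 were current in RefSeq, 3454 were updated and 56 kept. Values were taken as log2(intensity + 1), which understates changes of dim genes. Probe sets at or above the 75th percentile of the mean (intensity 63.6) were kept, 103692 in all (12156 genes, typically 6 each by the median), and summarised by median polish.

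All 16 arrays entered 1 limma 3.58.1 model (lmFit, eBayes, R 4.3.3) with 6 contrasts and Benjamini-Hochberg adjustment over all genes. Adjusted p-values given without an alternative setting come from it. Those given for an alternative come from the limma fit of that alternative. The 16-array model was tested on simulated data with independent noise and no shift shared by the genes of an array. That test therefore does not cover arrays that stand apart as here. Precision is limited by having 4 arrays a group: differences had a median SE of 0.166. Same-numbered arrays deviated from their group means with correlations of −0.504 to 0.574, so the numbers were not taken as pairs. Members, gene lists and tests were chosen with earlier results of these data known. Every member called in any contrast is named, with array values for the 12 members of smallest adjusted p against Control and for a fixed set of main chaperones; from a pathway list with 3 or more calls, the 2 of smallest adjusted p are named, and Hsf1, Xbp1, Atf4, Ddit3 and Fkbp5 always. Exceptions are marked in the text. Promoter windows come from RefSeq, GRCr8, where 40 of 52 members had an entry. Alternatives varied the pseudocount, filter, summary, normalization, weights, block, groups fitted, an intensity range covariate and the arrays left out.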

Additional observations from a re-analysis of the deposited data

Results flagged for a closer look

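For the 21 members whose values are printed array by array, and not for the other 31, each of the 84 groups of 4 arrays was searched for an array far from the other 3 by Dixon's gap ratio at the 95% level, which chance exceeds in about 5% of groups. It was exceeded in 8 groups, 3 of them on Targretin 2, and the odd array was low in 4. On Targretin 2, Dnaja1 read 8.85 against 9.79 to 9.94 on the other Targretin arrays (gap ratio 0.859), Dnajc14 read 7.72 against 8.34 to 8.45 (0.845) and Hspa9 read 9.97 against 10.60 to 10.66 (0.908). Hspa9 was also low on MeUAB30 1, at 10.26 against 10.54 to 10.59 (0.869). High values were those of Dnaja1 on Control 2, 10.67 against 10.05 to 10.12 (0.893), Dnajc3 on MeUAB30 4, 11.25 against 10.97 to 10.99 (0.914), Hsp90ab1 on Control 1, 12.08 against 11.82 to 11.86 (0.863), and Hsp90ab1 on MeUAB30 2, 12.04 against 11.87 to 11.88 (0.939). Hsp90ab1 on MeUAB30 2 thus has the largest gap ratio of the 8 within a span of under 0.2 log2 units.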

How the results depend on the processing

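Counts of called members kept within 1.5 times their main value in 81 cases and moved in 33. A count of 0 that stayed 0 is among those kept. That applies to UAB30 against Control and to MeUAB30 and Targretin against UAB30, where the main count was 0. The 81 therefore does not measure how stable the counts above 0 were. Over all 52 members, 6 contrasts and the alternatives of each, no change called as reported or under an alternative had opposite signs in the 2. Among the 5731 comparisons called in neither, the sign differed in 518, for example Dnaja1 and Hsph1 in MeUAB30 against Control, at −0.10 and −0.11 as reported and 0.05 and 0.02 without Control 2. With array weights the counts were 9 for MeUAB30 and 3 for Targretin against Control (22.8% and 6.26% of all genes called), 5 for MeUAB30 against UAB30 (11%), 4 for Targretin against UAB30 (3.78%) and 8 for Targretin against MeUAB30 (17.5%). With the intensity range as a covariate they were 1, 11 and 12 for UAB30, MeUAB30 and Targretin against Control (0.872%, 24.9% and 10.6% of all genes), 3 for MeUAB30 against UAB30 (5.97%), 2 for Targretin against UAB30 (5.13%) and 11 for Targretin against MeUAB30 (18.6%). Without Control 3, Targretin 2, MeUAB30 1 and UAB30 3 they were 7 for MeUAB30 and 2 for Targretin against Control and 6 for Targretin against MeUAB30. Those 4 arrays hold the most lowest members of their groups in these same data. By member mean and intensity range only Control 3 and Targretin 2 stood apart from the rest. Without Targretin 2 and Control 3, an alternative chosen after seeing the data, these were 7, 2 and 7 (19.4%, 2.85% and 10.2% of all genes). The Targretin count against Control was 0 with no filter, with the mean of probe sets, with only the 2 groups compared and with the replicate block; under the replicate block the MeUAB30 count was 2 and that of Targretin against MeUAB30 2. Leaving out 1 array gave 0 to 0 for UAB30, 1 to 3 for MeUAB30 and 0 to 2 for Targretin against Control, 0 to 0 for MeUAB30 and for Targretin against UAB30, and 1 to 2 for Targretin against MeUAB30. The cause of these moves was not tested. Over the same 5928 comparisons, changes of the 52 members stayed on their side of the threshold in 5815, gained a call in 83 and lost it in 30. Of the 5928, 5731 were called in neither fit and 197 in at least 1, and the 83 and 30 lie among those 197. Same-numbered arrays share only a number: 4, 1, 1, 2, 3 and 2 of 8 arrays correlated best with their own number in the 6 contrasts. Dim members are least well measured, since probe sets near background understate changes.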

Other observations

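Dnajb13, Hspb2, Dnajb8, Dnajc5b, Hspb3, Dnajc24 and Hspa12a were each read by 1 kept probe set, while the others paired with them lay under the threshold, and none of the 7 was called in any of the 6 contrasts. For Hspa12a, 1 of 14 probe sets passed, at a log2 mean of 10.77, and the other 13 lay under 6.01.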
